A study of Mus musculus with 9 samples.

Results

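Copying a genome needs origins that are licensed, a helicase that opens the strands, polymerases that copy them and a supply of deoxynucleotides, and 48 genes of this machinery were followed in mouse neurospheres, which are floating cell clusters grown in culture. The 48 genes were picked by name for their known place in origin licensing, the helicase, the polymerases, the sliding clamp, fragment joining and nucleotide supply. No measured value was used in the rule, but earlier results of these data were known when the genes were chosen. They were read by 106 of the 45101 probe sets on the array and make up 48 of the 18193 genes that had a probe set with a single gene symbol. All spheres came from C57BL/6J embryos of embryonic day 12.5 and were at passage 3. BMP NCSC were grown from dorsal root ganglia, the sensory ganglia that the neural crest forms, with BMP4 (10 ng/ml), bFGF (20 ng/ml) and EGF (20 ng/ml). rNCSC came from the same ganglia with bFGF and EGF at those doses but no BMP4. SCSC came from embryonic spinal cord and had the same medium as rNCSC. Each kind of sphere had 3 arrays. The labels do not say whether these were separate embryos or cultures, so each p-value here measures the spread between arrays alone.

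In G1, the origin recognition complex (ORC) with CDC6 and CDT1 loads the MCM2-7 helicase onto origins, and geminin blocks a repeat of that loading later in the cycle. In S phase, the DBF4-dependent kinase CDC7, CDC45, the GINS complex and MCM10 turn the loaded ring into a working helicase. Polymerases alpha, delta and epsilon then copy both strands, with PCNA as the sliding clamp, RFC as its loader and RPA on single strands. Many of these genes are transcribed under the control of E2F factors in cells that enter S phase, and in the embryonic nervous system they are known as features of dividing progenitors.

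Values are the authors' GCRMA values on the log2 scale, and each gene was read on its brightest probe set, judged by the mean of all 9 arrays. A gene was tested when it reached 5 on at least 3 arrays. It was called lower or higher at an adjusted p below 0.05 and a log2 difference of at least 1, from limma over 10319 genes. All 48 members were tested, since each was at 5 or more on every rNCSC and SCSC array. Of these, 8 had all BMP NCSC arrays under 5 (Orc1, Cdc6, Mcm10, Cdc45, Gins3, Pole, Tyms and Tk1), so for them the choice of tested genes favours a lower value in BMP NCSC. The same holds for Gins1 and Cdc7, which reached 5 on fewer than 3 BMP NCSC arrays. Levels of different genes are not compared, because probe sets differ in brightness.

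The replication machinery as a group was lower in BMP NCSC. Against rNCSC, 45 of 48 members (93.8%) were called lower and 0 higher, where 21.3% of all genes tested were called lower and 22.6% higher. Against SCSC, 45 were again lower and 0 higher, where 24.0% of genes tested were lower and 22.9% higher. The median difference of the members was -3.10 against rNCSC, beside -0.07 over all genes tested, and -3.30 against SCSC, beside -0.10. Both comparisons use the same 3 BMP NCSC arrays, so they are not 2 independent observations. The members not called in either were Orc3, Orc4 and Rpa1. Among the 40 members with at least 1 BMP NCSC array at 5 or more, 37 were lower in each comparison, with a median of -2.82 against rNCSC and -3.11 against SCSC. These 40 still include Gins1 and Cdc7, which were tested only through their values in rNCSC and SCSC.

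The size of the difference varied widely, from -5.56 for Tk1 to -0.05 for Orc3 against rNCSC. It was -2 or beyond in 33 members and -4 or beyond in 11. In 47 of 48 members (97.9%) every BMP NCSC array lay below every rNCSC array, and in 47 every BMP NCSC array lay below every SCSC array, with Orc3 the exception both times. Over all genes tested, 42.3% and 45.0% were separated in that direction. Most genes were not switched off on the array's scale, as 39 members kept a mean of 5 or more in BMP NCSC. In whole spheres, fewer replicating cells and less transcript per cell cannot be told apart.

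**Figure D1:**
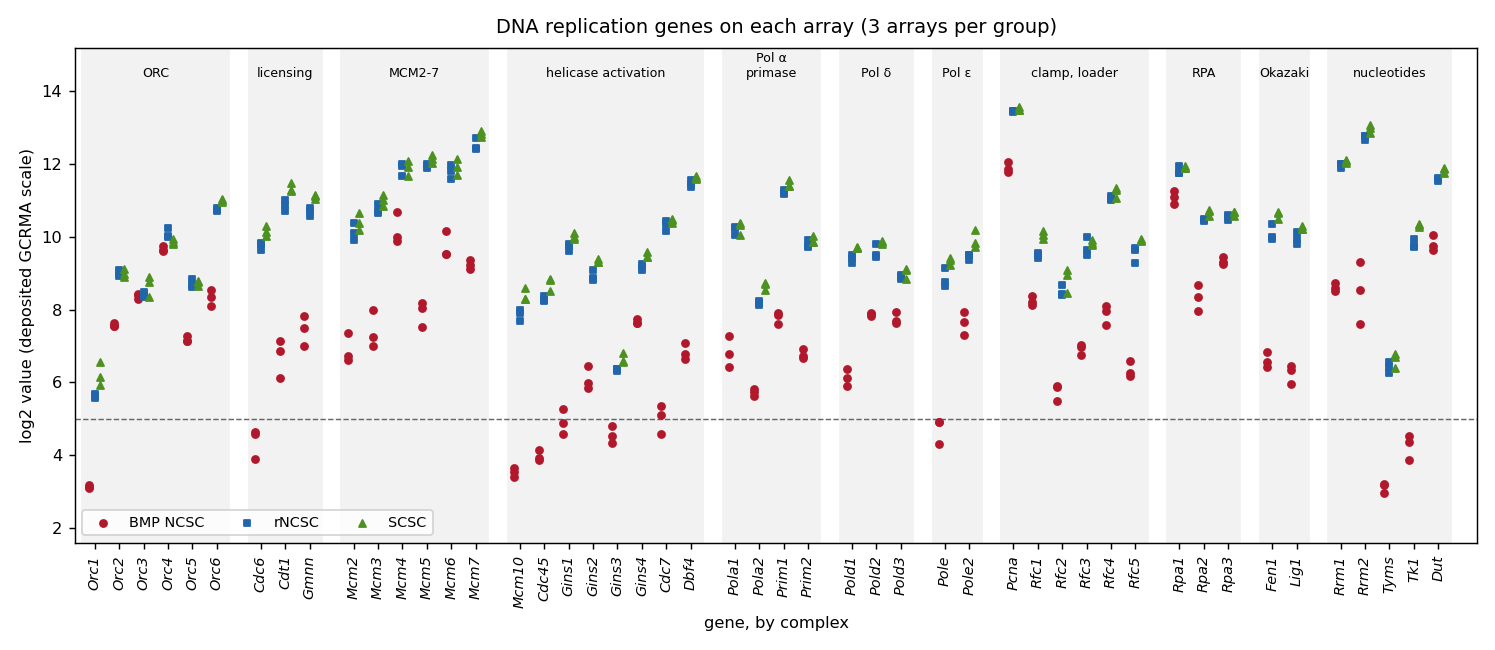
Log2 value (y axis, deposited GCRMA scale) of the 48 replication genes, grouped by complex along the x axis, with 1 point for each of the 3 arrays per group. The dashed line marks 5, the level used to choose genes for testing. BMP NCSC points lie below all rNCSC and SCSC points for 47 genes, and Orc3 is the exception.

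ORC, the 6-subunit complex that marks origins, held 2 of the 3 members that were not called. Its 4 lower members were Orc1, Orc2, Orc5 and Orc6, and the median difference of the 6 subunits was -1.48 against rNCSC and -1.48 against SCSC. Orc1, an ATPase subunit whose level is known to swing with the cycle in mammalian cells, had 3.14, 3.09 and 3.17 in BMP NCSC, against 5.69, 5.63 and 5.58 in rNCSC and 6.56, 6.16 and 5.94 in SCSC. Its difference was -2.50 (SE 0.15, adjusted p = 7.4e-07) against rNCSC and -3.09 (SE 0.15, adjusted p = 1.9e-07) against SCSC. Here the groups did not overlap, and the BMP NCSC values were at the low end of the scale, where the size of a difference is uncertain. With values under 4 set to 4, the difference of Orc1 from rNCSC was -1.63, more than 1.5 times smaller.

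Orc3, a core subunit, had 8.42, 8.41 and 8.29 in BMP NCSC, against 8.43, 8.48 and 8.36 in rNCSC and 8.90, 8.76 and 8.34 in SCSC. The 3 groups overlapped, and the difference of -0.05 (SE 0.14, adjusted p = 0.74) from rNCSC was within the array spread. Its 2 other probe sets gave 0.60 and 0.76 against rNCSC, so the sign for Orc3 depends on the probe set. Orc4, another core subunit, had 9.75, 9.65 and 9.60 in BMP NCSC, against 10.24, 9.99 and 10.01 in rNCSC and 9.94, 9.86 and 9.81 in SCSC. On this probe set it was lower than in rNCSC by a small amount that passed the test but not the size limit (-0.41, adjusted p = 0.0039). The difference from SCSC did not pass (-0.20, adjusted p = 0.084). Other tested probe sets of Orc4 gave -0.85, -0.81 and -0.25 against rNCSC. Against SCSC they gave -0.67, -0.82 and -0.72 (adjusted p = 0.00028, 0.00094 and 0.0018), which passed the test but not the size limit. Whether Orc4 differs from SCSC thus depends on the probe set. The remaining ORC subunits were lower by -1.43 (Orc2), -1.53 (Orc5) and -2.42 (Orc6) against rNCSC.

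All 3 licensing factors were called lower, with a median of -4.16 against rNCSC and -4.65 against SCSC. Cdc6, the ATPase that joins ORC to receive the helicase, had 3.89, 4.64 and 4.58 in BMP NCSC, against 9.79, 9.63 and 9.82 in rNCSC and 10.14, 10.02 and 10.29 in SCSC. The gap was -5.38 (SE 0.19, adjusted p = 3.9e-08) against rNCSC, the greatest among the genes of origin recognition and licensing. Gmnn, which encodes the CDT1 inhibitor geminin, had 6.99, 7.49 and 7.82 in BMP NCSC, against 10.72, 10.79 and 10.58 in rNCSC and 11.14, 11.11 and 11.03 in SCSC, a difference of -3.27 (SE 0.19, adjusted p = 6.4e-07) from rNCSC. Cdt1, the loading partner of CDC6, differed by -4.16 (SE 0.23). So the loader genes and the gene of their inhibitor were lower together. In all 3 every BMP NCSC array lay below every rNCSC and SCSC array, beside 42.3% and 45.0% of all genes tested. Cdc6 was tested only through its values in rNCSC and SCSC, which favours such a separation.

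The 6 subunits of the MCM2-7 ring were all called lower, with a median of -3.26 against rNCSC and -3.54 against SCSC. Mcm5 had 7.53, 8.18 and 8.04 in BMP NCSC, against 11.89, 11.95 and 12.00 in rNCSC and 12.15, 12.04 and 12.26 in SCSC, and its difference from rNCSC was -4.03 (SE 0.16, adjusted p = 7.6e-08). Mcm4 had 10.00, 9.88 and 10.68 in BMP NCSC, against 11.96, 11.67 and 12.00 in rNCSC and 11.91, 11.68 and 12.09 in SCSC, and differed by -1.69 (SE 0.21, adjusted p = 9.4e-05). BMP NCSC stayed below the other groups on every array for both genes, as in 42.3% of all genes tested against rNCSC and 45.0% against SCSC. The differences from rNCSC of the other subunits were -3.23 (Mcm2), -3.34 (Mcm3), -2.04 (Mcm6) and -3.30 (Mcm7). The size depended on the probe set. Other tested probe sets gave -4.01, -4.18 and -2.63 for Mcm3, and -2.23 for Mcm4. They gave -5.26 for Mcm5, -2.65 for Mcm6, and -3.74, -4.32 and -3.50 for Mcm7. All but 1 of these, in Mcm3, were greater than on the brightest probe set, as was the difference on the other probe set of Mcm2.

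Helicase activation had all 8 members called lower, with a median of -4.32 against rNCSC and -4.77 against SCSC. On the deposited values this was the most negative median of the complexes, with the licensing factors close at -4.16 and -4.65. The median against rNCSC rests on Mcm10 and Cdc45, which were tested only through their values in rNCSC and SCSC. With values under 4 set to 4, Mcm10 was at -3.86 and Cdc45 at -4.25, so the rank above the licensing factors depends on the low end of the scale. Cdc7, the kinase that phosphorylates the MCM ring to fire origins, had 4.59, 5.10 and 5.36 in BMP NCSC, against 10.17, 10.43 and 10.34 in rNCSC and 10.46, 10.49 and 10.37 in SCSC. Its difference was -5.29 (SE 0.18, adjusted p = 2.9e-08) from rNCSC, although a second probe set gave -1.91. Dbf4, the regulatory subunit of that kinase, differed by -4.63 (SE 0.12), so both partners were low in BMP NCSC. Mcm10 and Cdc45, which join the ring as it is activated, differed by -4.33 and -4.32, with means of 3.53 and 3.98 in BMP NCSC.

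The GINS complex, 4 subunits that bind CDC45 and the ring, spanned a wide range. Gins4 had 7.63, 7.75 and 7.64 in BMP NCSC, against 9.09, 9.25 and 9.18 in rNCSC and 9.59, 9.44 and 9.44 in SCSC, and its difference from rNCSC was -1.5 (SE 0.087, adjusted p = 7.0e-07). Gins1 differed by -4.82 (SE 0.16), Gins2 by -2.83 (SE 0.16) and Gins3 by -1.80 (SE 0.13). Other tested probe sets gave -2.49 (Gins1), -3.45 (Gins2) and -1.24 (Gins3), so the order of Gins1 and Gins2 depends on the probe set. In all GINS genes every BMP NCSC array lay below every array of both other groups. Over all genes tested, 42.3% were separated in that direction from rNCSC and 45.0% from SCSC. Gins1 and Gins3 were tested only through their values in rNCSC and SCSC, which favours such a separation.

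Polymerase alpha with its primase, which lays the first primers, was lower in all 4 subunits, with a median of -3.20 against rNCSC and -3.30 against SCSC. Prim1, the catalytic primase subunit, had 7.60, 7.85 and 7.91 in BMP NCSC, against 11.17, 11.20 and 11.28 in rNCSC and 11.57, 11.39 and 11.40 in SCSC, a difference of -3.43 (SE 0.10, adjusted p = 1.5e-08) from rNCSC. Pola2, the accessory subunit, had 5.64, 5.73 and 5.82 in BMP NCSC, against 8.18, 8.14 and 8.23 in rNCSC and 8.71, 8.53 and 8.73 in SCSC, a difference of -2.46 (SE 0.09, adjusted p = 4.7e-08). On the brightest probe sets these subunits moved by similar amounts, with Pola1, the catalytic polymerase subunit, at -3.37 and Prim2, the large primase subunit, at -3.03. Other tested probe sets gave -4.22 for Prim1 and -2.65 for Prim2, which lie further apart.

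Polymerase delta, which copies the lagging strand, was lower in the 3 subunits among the 48 members, with a median of -1.72 against rNCSC. Pold4, a further subunit outside the 48, was higher (2.12). Pold1, the catalytic gene, had 6.13, 5.91 and 6.37 in BMP NCSC, against 9.28, 9.42 and 9.51 in rNCSC and 9.72, 9.69 and 9.68 in SCSC, and differed by -3.27 (SE 0.12, adjusted p = 5.5e-08) from rNCSC. Pold3, an accessory subunit, had 7.63, 7.68 and 7.94 in BMP NCSC, against 8.95, 8.85 and 8.91 in rNCSC and 9.11, 8.85 and 9.08 in SCSC, and differed by -1.15 (SE 0.11, adjusted p = 2.0e-05). Pold2 lay between them at -1.72. The same order of a catalytic gene with a greater difference than the accessory one was seen in polymerase epsilon, the leading-strand enzyme, where Pole had 4.30, 4.90 and 4.92 in BMP NCSC, against 8.66, 8.75 and 9.14 in rNCSC and 9.42, 9.23 and 9.36 in SCSC. Pole2 had 7.30, 7.66 and 7.93 in BMP NCSC, against 9.37, 9.49 and 9.50 in rNCSC and 10.19, 9.84 and 9.71 in SCSC. The differences from rNCSC were -4.14 (SE 0.19, adjusted p = 1.7e-07) for Pole and -1.82 (SE 0.18, adjusted p = 1.7e-05) for Pole2. Pole3 and Pole4, further subunits outside the 48, were not called against rNCSC (-0.82 and -0.56). Against SCSC, Pole3 was lower (-1.18) and Pole4 was not called (-0.74). Other tested probe sets gave -2.17 for Pold1, and -1.85 and -1.42 for Pold3, so the gap within polymerase delta depends on the probe set. Differences between subunits were not tested.

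Clamp and clamp loader genes were lower in all 6 cases, with a median of -2.78 against rNCSC and -3.00 against SCSC. Pcna, the sliding clamp that also serves repair, had 11.77, 12.07 and 11.86 in BMP NCSC, against 13.47, 13.44 and 13.47 in rNCSC and 13.56, 13.49 and 13.49 in SCSC. It differed by -1.56 (SE 0.092, adjusted p = 8.2e-07) from rNCSC and did not overlap. Rfc5, a small loader subunit, had 6.27, 6.18 and 6.58 in BMP NCSC, against 9.27, 9.64 and 9.70 in rNCSC and 9.95, 9.89 and 9.90 in SCSC, a difference of -3.19 (SE 0.14, adjusted p = 1.4e-07). Rfc1, the large loader subunit, had 8.14, 8.37 and 8.21 in BMP NCSC, against 9.41, 9.49 and 9.56 in rNCSC and 10.06, 10.15 and 9.93 in SCSC, a difference of -1.24 (SE 0.099, adjusted p = 5.0e-06). On the brightest probe sets the other loader genes were closer to Rfc5, at -2.74 (Rfc2), -2.81 (Rfc3) and -3.17 (Rfc4). Other tested probe sets gave -2.41 and -1.71 for Rfc2, -2.48 for Rfc3, -3.55 for Rfc4, and -1.33 and -1.01 for Rfc1. At -1.71 Rfc2 lay closer to Rfc1, so its place depends on the probe set.

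RPA, the trimer that coats single-stranded DNA in replication and repair, showed the smallest median of the complexes, -1.20 against rNCSC and -1.32 against SCSC. Rpa1, its large subunit, had 10.90, 11.26 and 11.10 in BMP NCSC, against 11.75, 11.75 and 11.96 in rNCSC and 11.90, 11.88 and 11.96 in SCSC. All BMP NCSC arrays were below the others, but the differences of -0.73 (SE 0.11, adjusted p = 0.00032) from rNCSC and -0.82 (SE 0.11, adjusted p = 0.00014) from SCSC missed the size limit. A second probe set of Rpa1 gave -0.98 and -1.18, so the call against SCSC depends on the probe set. Rpa2 had 7.97, 8.34 and 8.69 in BMP NCSC, against 10.46, 10.43 and 10.50 in rNCSC and 10.72, 10.58 and 10.74 in SCSC, and differed by -2.13 (SE 0.16, adjusted p = 4.1e-06) from rNCSC. Rpa3 differed by -1.20 (SE 0.088).

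Both genes of Okazaki fragment joining were lower. Lig1, the replicative DNA ligase, had 5.95, 6.35 and 6.44 in BMP NCSC, against 9.81, 10.14 and 9.94 in rNCSC and 10.22, 10.29 and 10.21 in SCSC, a difference of -3.71 (SE 0.14, adjusted p = 5.9e-08) from rNCSC. Fen1, the flap nuclease that trims fragments, had 6.56, 6.43 and 6.84 in BMP NCSC, against 9.99, 10.34 and 9.95 in rNCSC and 10.67, 10.66 and 10.49 in SCSC, a difference of -3.48 (SE 0.14, adjusted p = 8.8e-08).

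In nucleotide supply all 5 members were lower, with a median of -3.35 against rNCSC and -3.51 against SCSC. Tk1, the cytosolic thymidine kinase whose product is known to be made in S phase, had 3.86, 4.54 and 4.36 in BMP NCSC, against 9.73, 9.75 and 9.95 in rNCSC and 10.33, 10.27 and 10.35 in SCSC. On the brightest probe set of each gene, Tk1 had the greatest difference of all 48 members. This was -5.56 (SE 0.16, adjusted p = 1.2e-08) against rNCSC and -6.07 (SE 0.16, adjusted p = 7.1e-09) against SCSC. Dut, the enzyme that removes dUTP, had 9.76, 9.63 and 10.04 in BMP NCSC, against 11.54, 11.62 and 11.58 in rNCSC and 11.86, 11.76 and 11.89 in SCSC, a difference of -1.77 (SE 0.11, adjusted p = 1.3e-06) from rNCSC. The second probe set of Dut, a dimmer one, gave -0.87, below the size limit.

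Ribonucleotide reductase makes deoxynucleotides from 2 subunits, and both genes were lower. Rrm1, the large subunit, differed by -3.35 (SE 0.088) from rNCSC. Rrm2, the small subunit that limits the enzyme in S phase, had 7.60, 8.53 and 9.31 in BMP NCSC, against 12.65, 12.76 and 12.77 in rNCSC and 13.00, 12.85 and 13.06 in SCSC. It had the greatest standard error of the members, 0.35, for a difference of -4.25 from rNCSC (adjusted p = 6.4e-06), and its BMP NCSC arrays were far apart. Other probe sets of Rrm2 gave -4.17 and -5.77 against rNCSC. The dimmest of them, at -5.77 and at -6.24 against SCSC, went beyond Tk1, so the rank of Tk1 depends on the probe set. Tyms, thymidylate synthase, differed by -3.30 (SE 0.13) from rNCSC on its own probe set, with a mean of 3.11 in BMP NCSC. A brighter probe set, annotated to both Tyms and the pseudogene Tyms-ps, had 5.43, 5.55 and 5.95 in BMP NCSC, against 8.99, 8.93 and 9.07 in rNCSC and 9.46, 9.24 and 9.31 in SCSC. That probe set was left out of the gene-level fit because it names more than 1 gene. Its difference of -3.35 (SE 0.14, adjusted p = 1.0e-07) was close to that of the gene's own probe set, which lies near the low end of the scale.

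**Figure D2:**
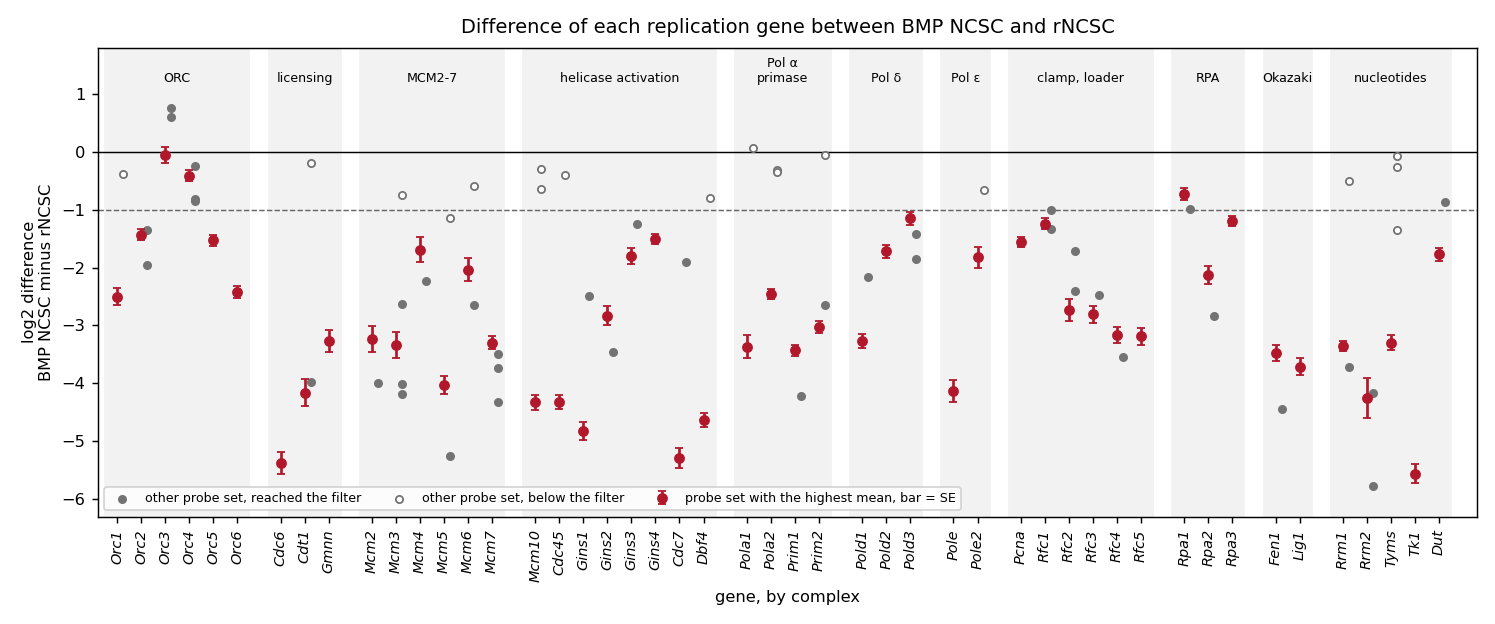
Log2 difference, BMP NCSC minus rNCSC (y axis), for each replication gene by complex (x axis). Red points are the probe set used for the gene with its standard error, filled grey points are other probe sets that reached 5 on at least 3 arrays, and open points are those that did not. The dashed line marks the size limit of -1. Red points run from -5.56 for Tk1 to -0.05 for Orc3.

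Of the 106 member probe sets, 88 reached 5 on at least 3 arrays. Over probe sets, 78 (88.6%) were lower against rNCSC and 0 higher, where 21.8% of 19914 probe sets tested were lower, and 79 (89.8%) were lower against SCSC, where 23.8% were. The 10 not called against rNCSC belonged to Orc3, Orc4, Rpa1 and Dut. Of the 28 members with more than 1 tested probe set, 24 had every one lower against rNCSC, and 12 members had a single probe set on the array. A probe set annotated to both Orc4 and the activin receptor gene Acvr2a went the other way, at 0.89 (SE 0.16, adjusted p = 0.00086), and cannot be given to either gene.

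The 3 BMP NCSC arrays were spread along the same axis. The median level of the 48 members was 7.00, 7.27 and 7.49 in BMP NCSC, against 9.80, 9.86 and 9.95 in rNCSC and 10.20, 10.10 and 10.25 in SCSC. Among the BMP NCSC arrays, replicate 1 held the lowest value for 29 members and replicate 3 the highest for 29. The median SD of a member over 3 arrays was 0.21 in BMP NCSC, 0.10 in rNCSC and 0.097 in SCSC, where that of all genes tested was 0.15, 0.17 and 0.12. So member values differed more between BMP NCSC arrays than those of a typical gene, and less in rNCSC and SCSC, and this was not tested.

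Between rNCSC and SCSC, which differ in tissue of origin and share a medium, 0 of 48 members were called in either direction with limma, beside 0.00969% of genes tested called lower and 0% called higher. The members nonetheless leaned one way. Their median difference, rNCSC minus SCSC, was -0.26, beside -0.04 over all genes, and 46 of 48 (95.8%) were negative, beside 59.7% of genes tested. At an unadjusted p below 0.05 there were 18 members (37.5%), beside 13.7% of genes tested. In 29 members (60.4%) every rNCSC array lay below every SCSC array, beside 15.1% of genes, and in 1 member (2.08%), Orc4, every rNCSC array lay above, beside 5.62%. The groups overlapped in the other 18. The shift was small on the scale of the BMP NCSC comparison, at -0.21 when each array was centred on its median.

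The members with the smallest p in that comparison were Rfc1, Pola2, Mcm10 and Orc1. Rfc1 differed by -0.56 (SE 0.099, adjusted p = 0.16) and Pola2 by -0.47 (SE 0.09, adjusted p = 0.16). Mcm10 differed by -0.53 (SE 0.13, adjusted p = 0.20) and Orc1 by -0.59 (SE 0.15, adjusted p = 0.20). None of these adjusted values passed the threshold. By complex, the median ran from -0.47 in polymerase epsilon to -0.12 in RPA. Mki67, a marker of cycling cells, had the same mean of 12.62 in rNCSC and SCSC. Top2a, the mitotic topoisomerase, was at 12.66 in rNCSC and 12.71 in SCSC. Top2a was picked from 28 further replisome and origin-firing genes, whose median difference was -0.26, so it was not typical of them. Whether cycling was alike in rNCSC and SCSC was not tested. The number of genes that pass in this comparison depended on 1 array. Without rNCSC replicate 2, 53 of all genes tested were lower and 18 higher, but 0 members, and the members' median was -0.27.

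**Figure D3:**
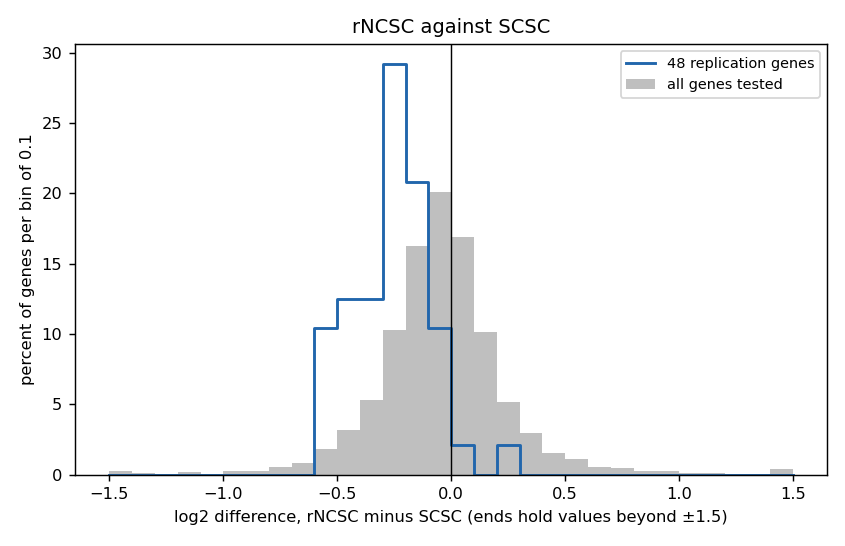
Percent of genes (y axis) in bins of 0.1 of the log2 difference rNCSC minus SCSC (x axis), for the 48 replication genes (blue line) and all 10319 genes tested (grey). The members lie mostly left of 0, with 46 of 48 negative.

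Other genes of the same process, listed apart from the 48, moved in the same direction in BMP NCSC, with exceptions. Among 28 further replisome and origin-firing genes, all tested, 19 were lower than in rNCSC and 1 higher (median -2.08), and 22 were lower than in SCSC and 1 higher. Of all genes tested, 21.3% were lower and 22.6% higher than in rNCSC, and 24.0% were lower and 22.9% higher than in SCSC. Against rNCSC the greatest differences were in Top2a (-5.17), the checkpoint mediator Clspn (-4.66), the nuclease-helicase Dna2 (-4.41), the CDT1 ubiquitin ligase adaptor Dtl (-4.30), the clamp loader subunit Dscc1 (-3.95) and the fork protection gene Timeless (-3.94). Pold4, the smallest subunit of polymerase delta, had 8.08, 8.09 and 8.04 in BMP NCSC, against 5.60, 6.07 and 6.19 in rNCSC and 5.68, 6.36 and 5.73 in SCSC. It was higher by 2.12 (SE 0.21, adjusted p = 1.8e-05) than in rNCSC, opposite to Pold1, Pold2 and Pold3 of the same enzyme.

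The 10 tested genes of histone supply and maintenance at the fork, of 12 listed, were all lower than in rNCSC, with a median of -2.96. Of all genes tested, 21.3% were lower and 22.6% higher than in rNCSC. Uhrf1, which brings the maintenance methylase to new DNA, differed by -5.58, the histone chaperone Nasp by -3.75, the chromatin assembly subunit Chaf1b by -3.64 and the histone chaperone Asf1b by -3.29. Mms22l, which acts at stalled forks, differed by -3.19 and the maintenance methylase Dnmt1 by -2.73. Among 13 tested genes of nucleotide supply outside the 48, of 15 listed, 7 were lower and 2 higher than in rNCSC, with a median of -1.24. The 2 higher genes were no larger a share than over all genes tested. Lower were, among others, Dctpp1 (-3.68), Shmt1 (-3.13), Umps (-2.49), Dck (-2.20), Gart (-1.89) and Cad (-1.58). Higher were Rrm2b, the p53-regulated small subunit of ribonucleotide reductase, by 1.22 (SE 0.14, adjusted p = 6.0e-05), and Tk2, the mitochondrial thymidine kinase, by 1.20 (SE 0.14, adjusted p = 5.5e-05). Against SCSC, 8 were lower and 1 higher, and Tk2, at 0.90 (adjusted p = 0.00031), missed the size limit. Of all genes tested, 24.0% were lower and 22.9% higher than in SCSC. Rrm2b and Tk2 are counterparts in function of Rrm2 and Tk1 that are known to act outside S phase, and Rrm2 and Tk1 were lower.

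Of 8 tested reference genes, of 12 listed, 0 were lower and 1 higher than in rNCSC, with a median of -0.15. The higher gene was Gusb, a lysosomal enzyme, at 2.06. Of all genes tested, 21.3% were lower and 22.6% higher, and 8 genes are too few to be set apart from those shares. Across these lists 0 genes were called between rNCSC and SCSC, beside 0.00969% of genes tested called lower and 0% higher. The medians were -0.26, -0.28, -0.29 and 0.00 for replisome, histone, nucleotide and reference genes.

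**Figure D4:**
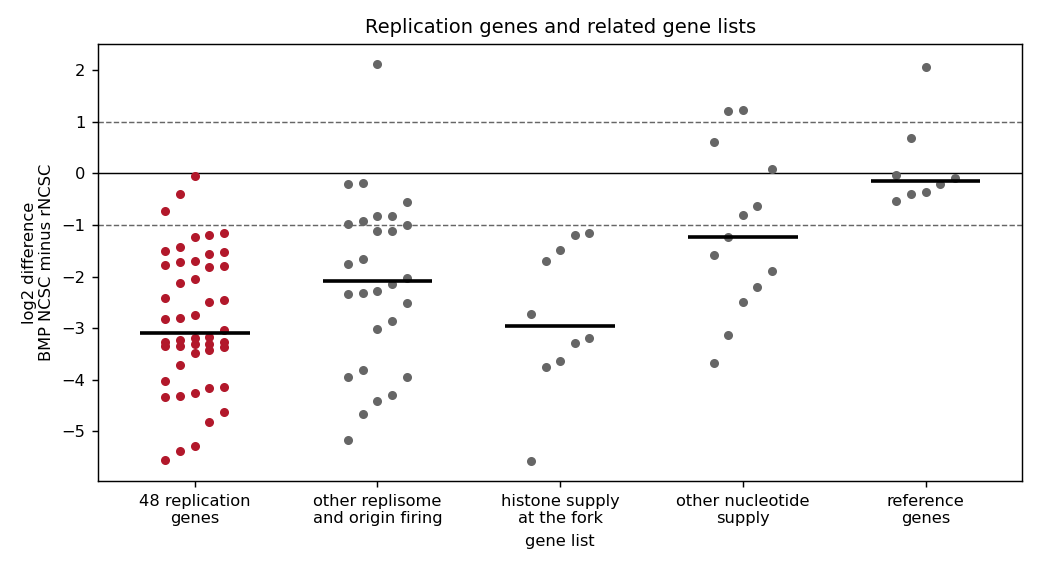
Log2 difference, BMP NCSC minus rNCSC (y axis), of each tested gene in the 48 replication genes and in 4 further lists (x axis). Black bars are medians, and dashed lines mark the size limits of -1 and 1. The medians are -3.10, -2.08, -2.96, -1.24 and -0.15.

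Other features of the spheres moved with the same groups. Mki67 had 6.61, 7.35 and 7.41 in BMP NCSC, against 12.59, 12.62 and 12.66 in rNCSC and 12.60, 12.62 and 12.65 in SCSC. Of all genes tested, 21.3% were lower and 22.6% higher in BMP NCSC than in rNCSC. Of 6 tested markers of CNS progenitors, 5 were lower in BMP NCSC than in rNCSC and Sox2 was not called. Their summed log2 level was 29.3 to 29.6 in BMP NCSC, 71.3 to 72.5 in rNCSC and 72.3 to 73.1 in SCSC, with Olig2 at a mean of 1.47 in BMP NCSC. The 5 tested neural crest and Schwann cell markers were higher in BMP NCSC, summing with the untested Foxd3 to 54.2 to 56.1 in BMP NCSC, 20.1 to 21.9 in rNCSC and 19.6 to 20.4 in SCSC. The 6 cartilage and mesenchyme markers were higher as well, at 72.7 to 78.1 in BMP NCSC, 20.2 to 21.6 in rNCSC and 20.2 to 21.4 in SCSC. By these markers the rNCSC arrays, though labelled as from ganglia, lacked Sox10 (mean 4.14) and held Olig2 (12.10) at the level of SCSC (12.14). Of 7 tested neuron markers, 3 were lower and 1 higher than in rNCSC, and 5 were lower and 0 higher than in SCSC. Of all genes tested, 24.0% were lower and 22.9% higher than in SCSC. All 9 neuron markers listed, with the untested Stmn2 and Nefl, summed to 42.9 to 51.4 in BMP NCSC, 49.8 to 58.0 in rNCSC and 55.9 to 58.7 in SCSC. None of the 4 endothelial or 5 microglial markers reached 5 on any array. The part of cell type in the replication differences was not tested.

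The 3′ minus 5′ signal of the actin control, a sign of RNA integrity, also moved with the group. It was 1.13, 1.03 and 1.09 in BMP NCSC, against 0.84, 0.84 and 0.86 in rNCSC and 0.88, 0.87 and 0.87 in SCSC. The Gapdh control gave 0.43, 0.44 and 0.37 in BMP NCSC, against 0.32, 0.37 and 0.37 in rNCSC and 0.34, 0.34 and 0.28 in SCSC. The BMP NCSC arrays had the highest actin values. Their Gapdh values overlapped those of rNCSC but lay above all those of SCSC. The part of either control in the replication differences was not tested. Array medians lay between 3.99 and 4.03, and 38.7% to 39.9% of probe sets reached 5.

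Because the members moved together, their promoters were searched for words that replication genes are known to carry. A RefSeq window (GRCm38.p6) of 250 bases before and 50 after the start was held for 40 of 48 members. The E2F words TTTCCCGC, TTTCGCGC, TTTGCCGC and TTTGGCGC, read on either strand, were present in 15 of 40 members (37.5%), against 425 of 8455 genes tested on the arrays (5.03%) and 704 of 27025 genes in the promoter table (2.60%). The CCAAT box was in 57.5% of members, 43.6% of genes tested and 41.1% of all genes. The word TTTGAA, the core of the cell cycle homology region, was in 17.5%, 14.0% and 20.2%. Base composition was alike in members and genes tested, with a median GC content of 61.8% and 61.7%, and lower over the whole table at 52.7%. A match is a run of letters and shows no binding.

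**Figure D5:**
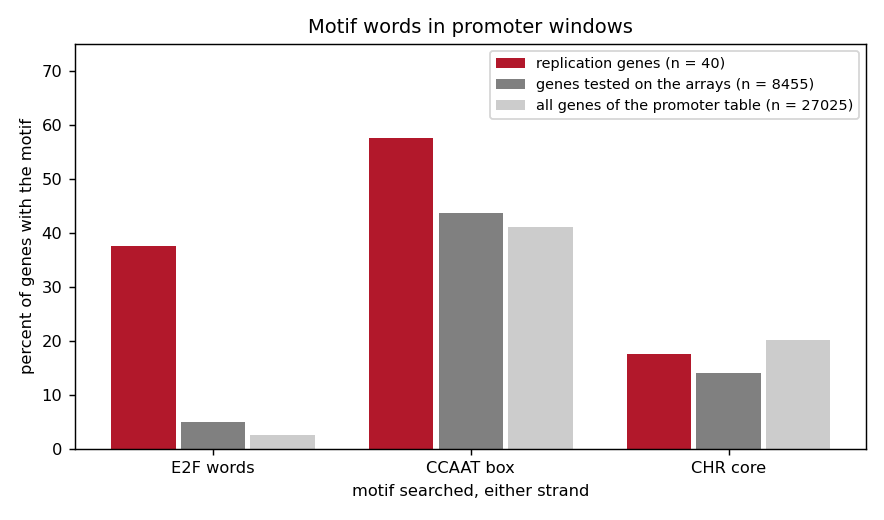
Percent of genes (y axis) whose promoter window holds each motif on either strand (x axis), for the replication genes with a window, the genes tested on the arrays and all genes in the promoter table. The E2F words are in 37.5%, 5.03% and 2.60%.

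Words of the E2F type lie in members of several complexes, and 30-base stretches around 1 of them are shown for 7 genes of ORC, the helicase and the polymerases, chosen after the matches were seen. Each is written 5′ to 3′ along the gene's strand, with the word or its reverse complement in capitals. In Mcm5 and Mcm6 a second word overlaps another (in Mcm5 the one shown), so these are not separate matches.
Orc1, chr4:108579416-108579445, plus strand: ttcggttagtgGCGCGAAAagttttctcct
Orc3, chr4:34614965-34614994, minus strand: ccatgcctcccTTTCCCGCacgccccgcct
Mcm5, chr8:75109345-75109374, plus strand: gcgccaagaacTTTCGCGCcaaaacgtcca
Mcm6, chr1:128359734-128359763, minus strand: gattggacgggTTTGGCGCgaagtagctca
Mcm7, chr5:138172030-138172059, minus strand: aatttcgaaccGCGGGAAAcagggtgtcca
Gins3, chr8:95633507-95633536, plus strand: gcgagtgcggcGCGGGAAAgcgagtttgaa
Pola1, chrX:93632275-93632304, minus strand: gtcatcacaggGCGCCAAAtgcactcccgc
In these genes the difference from rNCSC was -2.50 (Orc1), -0.05 (Orc3), -4.03 (Mcm5), -2.04 (Mcm6), -3.30 (Mcm7), -1.80 (Gins3) and -3.37 (Pola1), so a word was present both in a gene that was not called and in genes that fell by much more.

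The 2 members with the greatest differences differ in this feature, and the 250 bases before the start of each are printed for that reason. Cdc6 holds 1 word, in capitals, on the opposite strand at position -138 from the start. Tk1 holds none of the 4 words in its window, so no letters are in capitals. Cdc7 (-5.29) and Dbf4 (-4.63), the next in size among members with a window, hold none of them either. Only exact words were searched, so an inexact site would be missed.
Tk1, chr11:117826015-117826264, minus strand: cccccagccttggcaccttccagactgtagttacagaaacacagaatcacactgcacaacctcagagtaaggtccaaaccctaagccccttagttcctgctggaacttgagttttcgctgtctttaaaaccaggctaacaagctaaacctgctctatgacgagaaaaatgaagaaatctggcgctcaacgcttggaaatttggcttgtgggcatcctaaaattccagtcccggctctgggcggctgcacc
Cdc6, chr11:98907901-98908150, plus strand: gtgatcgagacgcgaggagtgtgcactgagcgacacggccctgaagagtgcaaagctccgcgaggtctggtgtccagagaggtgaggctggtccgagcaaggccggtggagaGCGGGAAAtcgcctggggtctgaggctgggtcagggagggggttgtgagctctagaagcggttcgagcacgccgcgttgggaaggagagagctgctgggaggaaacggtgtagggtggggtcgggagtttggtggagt
Tk1 was at -5.56 and Cdc6 at -5.38 against rNCSC. Over the members, the median difference was -3.27 in the 15 with a word and -3.17 in the 25 without, and both sets spanned nearly the whole range, -5.38 to -0.05 and -5.56 to -0.41.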

How the data were processed

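The deposited values are log2 expression values per probe set of Affymetrix mouse arrays, made by the authors with GCRMA per the submitters' processing notes. Its version is not given in these sources. GCRMA makes array distributions alike, so a change in total RNA per cell would not show. Of 45101 probe sets, 64 were controls, 34945 had 1 gene symbol in the platform annotation, 932 named several genes and were dropped, and 9160 had no entry. Gene identifiers of 34741 were found in the GRCm38.p6 table.

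Each of 18193 genes took its brightest probe set by mean. Genes reaching 5 on at least 3 arrays entered 1 limma fit (3.58.1, R 4.3.3) of the group means of all 9 arrays (6 residual and 2.38 prior degrees of freedom). P-values were two-sided and Benjamini-Hochberg adjusted over 10319 genes. The fit was tested on simulated data.

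The 48 members and the other lists were chosen with earlier results of these data known. Of other lists, at most 6 called genes with the greatest difference and those moving the other way were named, with Pole3 and Pole4 added after their values were seen. Per-array values were given for the greatest and smallest difference in each complex, and Orc4, Rrm2, Pcna, Pold4, Mki67 and the shared Tyms probe set were added after their values were seen. Motifs were searched in RefSeq promoters.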

Additional observations from a re-analysis of the deposited data

How the results depend on the processing

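The number of arrays, 3 per group, limits the precision. Of the member differences and counts tried under the other settings, the members called lower numbered 42 to 47 in the BMP NCSC comparisons at the gene level, and 0 were called higher. Leaving out each array in turn kept 45, with medians of -3.12 to -3.03 against rNCSC and -3.33 to -3.21 against SCSC. The mean of all probe sets of a gene left 45 members tested, with 42 lower and medians of -2.48 against rNCSC and -2.71 against SCSC. The probe set with the highest variance gave -3.48 against SCSC, and values under 4 set to 4 gave -2.93 against rNCSC. With all probe sets tested, 78 and 79 of 88 member probe sets were lower, with medians of -2.69 and -3.03 against rNCSC and SCSC. Over all probe sets that fit called 4334 lower and 4101 higher against rNCSC, and 4741 lower and 4247 higher against SCSC. With no size limit, 4249 genes were lower and 3793 higher against rNCSC, and 4444 and 3777 against SCSC, beside 2197 and 2335, and 2473 and 2366. With probe sets named plainly preferred to those that may match several transcripts, a setting chosen after seeing the data, Dut was not called (-0.87 against rNCSC and -0.96 against SCSC) and Rpa1 was called against SCSC (-1.18).

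Between rNCSC and SCSC, 1 gene was called lower and 0 higher over all genes. This was 3 and 1 with trended variances, 5 and 9 with array weights, and 0 lower with the 6 arrays compared or an adjusted p below 0.01. Leaving out each array gave 0 to 53 lower and 0 to 18 higher, with the highest counts without rNCSC replicate 2. The members' median was -0.31 to -0.21 over the settings, and 0 members were called in those tried. The titles number the replicates of each group alike. The deviations of same-numbered arrays correlated at 0.04 to 0.30, not all above 0.1, so the numbers were not taken as pairs. With a replicate block, 45 members were lower in both BMP NCSC comparisons and 0 genes lower between rNCSC and SCSC.

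Signs turned in members near 0, and the cause was not tested. Orc3 was at 0.44 and 0.37 against rNCSC and SCSC with the mean of all probe sets, and at 0.76 and 0.79 with the highest variance. For rNCSC minus SCSC, Orc2 gave -0.15 and Orc4 -0.02 with the mean of all probe sets, and Orc2 -0.43, Orc3 0.04 and Orc4 0.00 with the highest variance. In that comparison, Orc5 gave 0.00 with quantile normalization and 0.02 with centred arrays, and Mcm4 0.04 with centred arrays. Array weights gave -0.03 for Orc2 and 0.01 for Mcm4. Over the fits that left out 1 array, Orc2 ran from -0.05 to 0.06, Orc5 from -0.09 to 0.02 and Mcm4 from -0.12 to 0.09.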
